A study of Mus musculus with 2 samples.

Results

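Solute carriers are the membrane proteins, grouped in numbered Slc families, that move nutrients, ions, metals and metabolites across the membranes of a cell and its organelles. They were followed here in 2 libraries of single cells from mouse intestinal organoids, 1 from day 5 of culture and 1 from day 3. A member was any gene whose symbol began with Slc and a digit and that had at least 50 unique molecular identifiers (UMIs, counts of captured transcripts) over all cells, so the members were chosen by their summed UMI counts. The mitochondrial Slc25 family and Slc12a2, Slc2a1 and Slc16a3 were left out. This gave 171 members of the 15745 genes in the table, from 284 Slc symbols, of which 239 stood after these exclusions and 68 were under the minimum. By their names, 4 members are not transporters, such as the scaffold protein gene Slc9a3r1, and 167 are. Just inside the limit stood Slc15a2 with 57 UMIs, Slc10a2 with 58, Slc34a2 with 64 and Slc47a1 with 66, and just outside it Slc46a3 with 46, Slc45a3 with 44, Slc16a11 with 43 and Slc7a15 with 40.

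Both libraries came from organoids of wild-type C57BL/6 mice aged 10 weeks, and the study asks how an organoid without a pattern forms its cell types. Organoids of both days were started in a medium with EGF, Noggin, R-spondin and N-acetylcysteine. Additions up to day 3 were Wnt3a-conditioned medium at 20% and the ROCK inhibitor Y-27632 at 10 µM, and up to day 1 also the GSK3B inhibitor CHIR99021 at 3 µM. The day 5 organoids then had none of these 3 from day 3 on, so that age in culture and medium cannot be told apart. The day 5 library held 1065 cells with a median of 13549 UMIs and the day 3 library 798 cells with a median of 32063.5. With 1 library per day no test was possible. Values are UMIs per 1000000 UMIs (CPM) with exact Poisson 95% intervals for counting error, and a member is called higher or lower when its levels differ by 2-fold or more.

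An absorptive cell of the small intestine takes up nutrients through carriers of its apical brush border and passes them to the blood through other carriers of its basolateral side. Sugar and amino acid carriers of the brush border are mostly driven by the sodium gradient, and the peptide carrier by protons. Dividing crypt cells instead use exchangers and sodium-coupled carriers that feed amino acids, nucleosides and folate into growth. Some carriers work only in pairs: the light chains Slc7a5, Slc7a6, Slc7a7, Slc7a8 and Slc7a11 bind the heavy chain Slc3a2, and Slc7a9 binds Slc3a1.

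Promoter sequence is shown for 4 members picked after the values and letters were seen. The cystine carrier Slc7a11 was lower at day 5. The amino acid carriers Slc7a7 and Slc6a20a and the glucose carrier Slc2a2 were higher, Slc7a7 with a log2 ratio of only 1.22. Slc7a7 has several starts, and the window shown is the one that held TGATGCAA. Another of its windows held GTTAAT. Each run is the 250 bases before a transcript start in RefSeq, build GRCm38.p6, written 5′ to 3′ on the gene's strand. The windows are chr3:50443614-50443863 on the minus strand for Slc7a11, chr14:54417703-54417952 on the minus strand for 1 of the starts of Slc7a7, chr9:123678833-123679082 on the minus strand for Slc6a20a and chr3:28697653-28697902 on the plus strand for Slc2a2. Capitals mark TGATGCAA, the composite element of ATF4 and C/EBP factors, or its reverse complement TTGCATCA, and GTTAAT, a half-site of HNF1 factors.
Slc7a11: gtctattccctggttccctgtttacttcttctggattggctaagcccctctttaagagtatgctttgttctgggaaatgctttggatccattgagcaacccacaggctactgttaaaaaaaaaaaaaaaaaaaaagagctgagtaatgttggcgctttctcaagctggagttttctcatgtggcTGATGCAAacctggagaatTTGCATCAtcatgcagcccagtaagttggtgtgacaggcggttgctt
Slc7a7: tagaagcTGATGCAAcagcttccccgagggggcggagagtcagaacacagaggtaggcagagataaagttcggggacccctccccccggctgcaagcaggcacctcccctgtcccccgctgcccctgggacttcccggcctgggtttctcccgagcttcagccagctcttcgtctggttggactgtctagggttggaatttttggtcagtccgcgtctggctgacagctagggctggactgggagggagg
Slc6a20a: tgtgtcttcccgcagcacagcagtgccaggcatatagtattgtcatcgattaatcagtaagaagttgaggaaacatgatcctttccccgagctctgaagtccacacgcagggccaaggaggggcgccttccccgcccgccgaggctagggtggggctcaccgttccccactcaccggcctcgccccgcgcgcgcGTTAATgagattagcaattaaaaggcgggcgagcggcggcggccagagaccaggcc
Slc2a2: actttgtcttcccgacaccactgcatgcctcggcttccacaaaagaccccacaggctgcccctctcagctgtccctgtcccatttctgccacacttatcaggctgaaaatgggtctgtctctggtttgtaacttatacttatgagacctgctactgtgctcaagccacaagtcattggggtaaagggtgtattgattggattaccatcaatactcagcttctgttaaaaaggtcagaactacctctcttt

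Slc7a11 held TGATGCAA at positions -66 to -59 from the start and its reverse complement at -47 to -40. Both matches lie within a short stretch of this promoter. The window of Slc7a7 held TGATGCAA once, at -243 to -236. Slc6a20a held GTTAAT at -56 to -51, and Slc2a2 held none of the motifs. The motifs were searched on both strands in the 250 bases before each start, they did not overlap in these windows, and 131 members had a promoter in the table. TGATGCAA stood in 0.792% of 32851 promoters, and in 1 of 35 matched members that were higher at day 5, 1 of 18 that were lower and 1 of 78 that were neither. GTTAAT stood in 6.43% of promoters and in 5 of 35 higher members (Slc16a10, Slc26a3, Slc39a5, Slc6a20a and Slc7a7), 1 of 18 lower members and 4 of 78 of the rest. CAAAGTCC, a core of HNF4 sites, stood in 1.20% of promoters and in 2 of 35 higher members (Slc3a1 and Slc51a), 0 of 18 lower members and 3 of 78 of the rest. A gene with several starts was counted when any of its windows held the motif. The percentages instead count each of the 32851 promoters, which belong to 27025 genes. They are thus on another basis than the counts of members and are no like background for them. The motifs and these promoters were chosen after the values and letters were seen, and a match is a description of letters only.

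Carriers of sugars, peptides, amino acids, dicarboxylates, sulfate and nucleosides were among the members higher at day 5, and amino acid carriers linked to growth were among those lower. Of the 171 members, 42 were higher at day 5 (24.6%, against 8.03% of all genes with at least 50 UMIs), 25 were lower (14.6%, against 16.3% of all genes) and 104 were neither. The members' median log2 ratio of day 5 over day 3 was 0.08, against -0.35 over all genes. Summed over members, the day 5 library held 3812 CPM (3783 to 3841) and the day 3 library 2868 CPM (2848 to 2887). Scaling by TMM factors instead of totals adds 0.31 to each log2 ratio of the days and gives 59 members higher and 15 lower. The same is added to the ratios of all genes, and no share of all genes is given for this scaling. A level in a library mixes the number of cells of a type with the transcripts per cell. Cells called absorptive below were 411 of 1065 cells at day 5 and 70 of 798 at day 3. Without them in both libraries 34 members were higher and 24 lower, and no share of all genes is given for this cell set. The cells left at day 5 still held enterocyte markers. Anpep, 1 of these, stood at 115.4 CPM in an unnamed cluster of 177 cells and 220.5 CPM in cells called regenerative below. The 34 are therefore not a count outside all enterocyte-like cells.

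**Figure D1:**
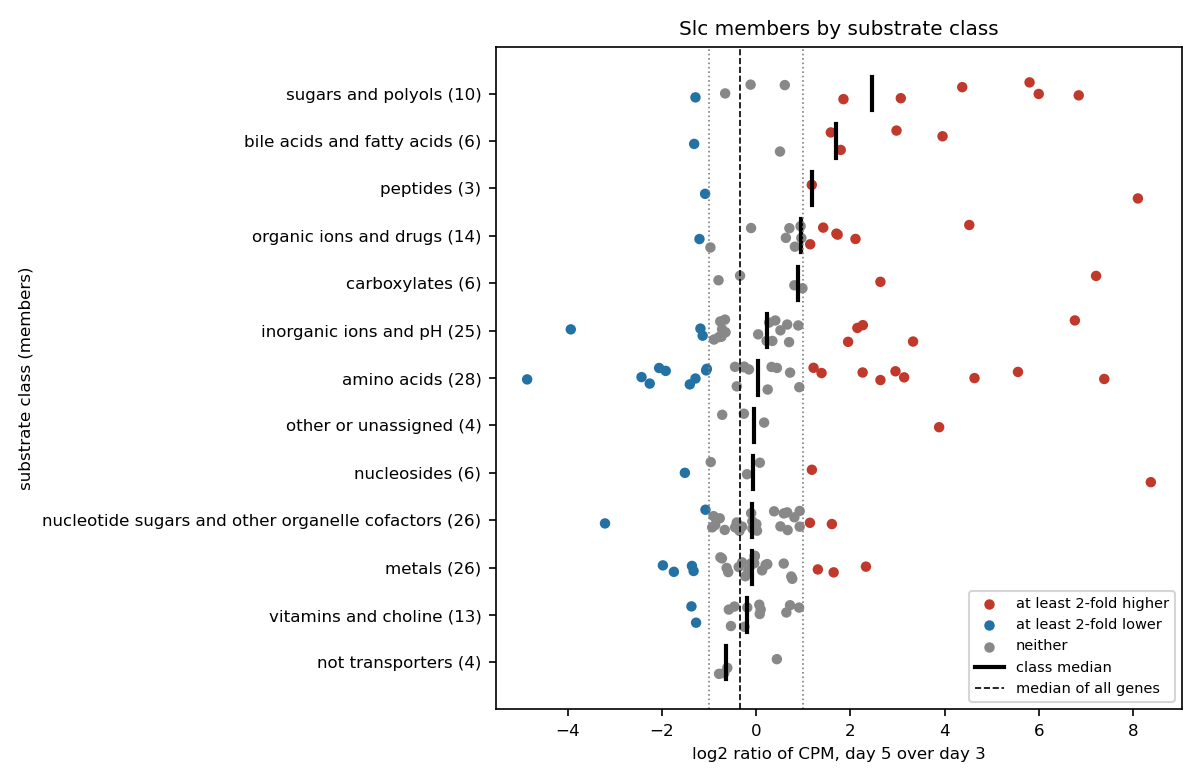
Log2 ratio of CPM, day 5 over day 3, for each of the 171 members (points) by substrate class. Black bars are class medians, the dashed line is the median of all genes (-0.35) and dotted lines mark 2-fold; sugar carriers have the highest class median (2.46), and the rightmost nucleoside point, Slc28a1, had no UMI at day 3, so its position rests on the 0.5 UMI added.

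Sugar and polyol carriers had the highest median of the substrate classes, with a log2 ratio of 2.46. Of 10 members 6 were higher and 1 lower (against 8.03% and 16.3% of all genes). The summed level of these 10 members was 482.8 CPM (472.5 to 493.2) in the day 5 library and 88.6 CPM (85.2 to 92.1) in the day 3 library, and Slc5a1 gave 65.9% of it at day 5 and 42.7% at day 3. Slc5a1, the sodium-glucose cotransporter of the brush border, stood at 318 CPM (310 to 327) in the day 5 library and 37.8 CPM (35.6 to 40.1) in the day 3 library, a log2 ratio of 3.07. Slc2a2, the basolateral glucose exit carrier, had 1217 UMIs or 70.1 CPM (66.3 to 74.2) in the day 5 library and 17 UMIs or 0.591 CPM (0.344 to 0.946) in the day 3 library. Its log2 ratio was 6.85. The fructose carrier Slc2a5 stood at 39.8 CPM (36.9 to 42.9) in the day 5 library and 0.695 CPM (0.425 to 1.07) in the day 3 library. Slc5a1 was thus well above 0 at day 3, whereas the carriers for glucose exit and fructose uptake each had 20 UMIs or fewer there.

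The smaller sugar carriers differed among themselves. Slc5a11, a sodium-coupled inositol carrier, had 96 UMIs at day 5 and 2 at day 3, a log2 ratio of 6.00 with a counting interval of 4.42 to 9.38. Slc5a4b, a member of the glucose cotransporter family, stood at 8.99 CPM at day 5 and 0.417 CPM at day 3. Reads of Slc5a4b and its near-identical neighbour Slc5a4a could be split in counting, so their values are uncertain. Slc50a1, a sugar carrier of the SWEET family, stood at 19.7 CPM at day 5 and 31.1 CPM at day 3, a log2 ratio of -0.66 that is within 2-fold. The sodium-coupled inositol carrier Slc5a3, named after its values were seen, was lower, at 2.71 CPM at day 5 and 6.67 CPM at day 3, a log2 ratio of -1.29; it overlaps Mrps6, so its value is uncertain.

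The peptide, carboxylate and nucleoside classes each held a brush border carrier that was all but missing at day 3. Slc15a1, the proton-coupled carrier of short peptides, had 415 UMIs at day 5, or 23.9 CPM (21.7 to 26.3), and 2 UMIs at day 3, or 0.0695 CPM (0.00842 to 0.251). The log2 ratio was 8.11 with a counting interval of 6.56 to 11.48. Slc13a2, a carrier of citrate and other dicarboxylates, had 224 UMIs at day 5 and 2 at day 3, a log2 ratio of 7.22 with an interval of 5.67 to 10.59. Slc28a1, a sodium-coupled pyrimidine nucleoside carrier, had 100 UMIs or 5.76 CPM at day 5 and none at day 3, where a count of 0 allows up to 0.104 CPM (a floor of 3 counts for the library). Set against this floor, its level at day 5 was 55.3-fold higher, with the counting error of the day 5 level left out. Slc16a1, the lactate and short-chain fatty acid carrier, was within 2-fold, at 29.5 CPM at day 5 and 51.4 CPM at day 3.

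Amino acid carriers split into a higher and a lower set. Of 28 members 9 were higher and 9 lower (against 8.03% and 16.3% of all genes), and the median log2 ratio was 0.05. On the higher side stood the carriers of the absorptive cell. Slc6a20a, the carrier of proline and other imino acids, stood at 114 CPM (109 to 119) in the day 5 library and 0.661 CPM (0.398 to 1.03) in the day 3 library, a log2 ratio of 7.39. Slc6a19, the main carrier of neutral amino acids in the brush border, stood at 35.2 CPM (32.5 to 38.1) in the day 5 library and 0.730 CPM (0.452 to 1.12) in the day 3 library. The near-identical genes Slc6a20a and Slc6a20b may share reads, and Slc6a20b stood at 3.86 CPM at day 5 and 0.139 CPM at day 3. The cystine and basic amino acid carrier went with its heavy chain: Slc7a9 stood at 77.9 CPM at day 5 and 10.0 CPM at day 3, and Slc3a1 at 36.0 CPM at day 5 and 5.77 CPM at day 3. Their log2 ratios were 2.96 and 2.64.

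Basolateral carriers that release amino acids were higher too. Slc7a7, the exit carrier of basic amino acids, stood at 82.6 CPM (78.4 to 87.0) in the day 5 library and 35.5 CPM (33.4 to 37.7) in the day 3 library. Slc43a2, a facilitative carrier of large neutral amino acids, had a log2 ratio of 3.14, Slc16a10, a carrier of aromatic amino acids, 2.26 and Slc7a8, a neutral amino acid exchanger, 1.39. The shared heavy chain Slc3a2 was within 2-fold, at 54.1 CPM (50.7 to 57.6) in the day 5 library and 65.0 CPM (62.1 to 68.0) in the day 3 library. Its light chains went opposite ways, with Slc7a7 and Slc7a8 higher at day 5 and Slc7a5, Slc7a6 and Slc7a11 lower.

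The lower set was made of carriers linked to growth and to redox balance. Of 15 carriers listed for growth-linked amino acid uptake 11 were members. At day 5, 9 of these were lower (against 16.3% of all genes) and 0 higher (against 8.03%). Their median log2 ratio was -1.41. With TMM factors 6 were lower, and without the absorptive cells 7 were, with no share of all genes given for either. Slc7a11, which exchanges glutamate for cystine and so feeds glutathione, had 16 UMIs or 0.922 CPM (0.527 to 1.498) in the day 5 library and 796 UMIs or 27.7 CPM (25.8 to 29.7) in the day 3 library, a log2 ratio of -4.86. Slc7a5, the exchanger of leucine and other large neutral amino acids, stood at 5.36 CPM (4.33 to 6.57) in the day 5 library and 29.1 CPM (27.2 to 31.2) in the day 3 library, a log2 ratio of -2.44. The arginine carrier Slc7a1 stood at 22.1 CPM at day 5 and 58.9 CPM at day 3. The glutamine carriers Slc1a5, Slc38a1 and Slc38a2 had log2 ratios of -1.06, -1.29 and -1.05, close to the 2-fold limit, and all 3 were within it with TMM factors. Slc6a6, the taurine carrier, and Slc3a2 were the members of this list within 2-fold.

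**Figure D2:**
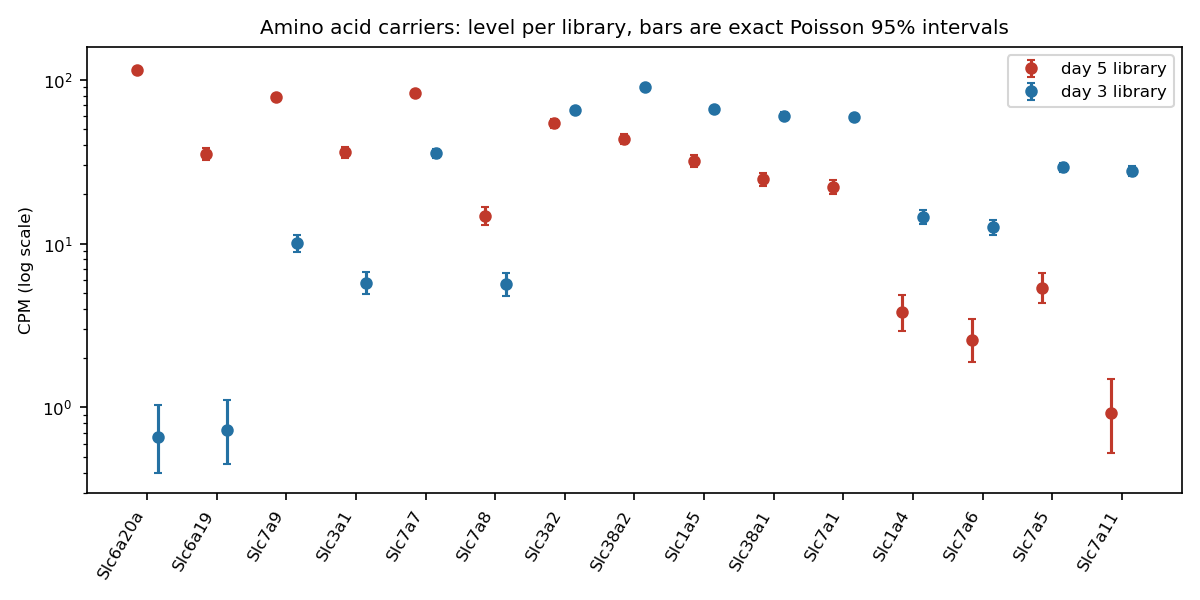
Level of 15 amino acid carriers in the day 5 library (red) and the day 3 library (blue), in CPM on a log axis, with exact Poisson 95% intervals as bars. The carriers on the left are higher at day 5, Slc3a2 lies close together in both libraries (54.1 and 65.0 CPM), and Slc7a11 on the right is at 0.922 CPM at day 5 and 27.7 CPM at day 3.

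Carriers of lipids and bile acids were mostly higher at day 5, with 4 of 6 members higher and 1 lower (against 8.03% and 16.3% of all genes). Slc27a2 and Slc27a4, which take up and activate fatty acids, had log2 ratios of 2.98 and 1.58. The subunits of the basolateral bile acid exporter were both higher: Slc51a stood at 16.2 CPM at day 5 and 4.66 CPM at day 3, and Slc51b at 7.26 CPM at day 5 and 0.452 CPM at day 3. The apical bile acid carrier Slc10a2 went the other way, with 11 UMIs at day 5 and 47 at day 3. Its log2 ratio was -1.32 with a counting interval of -2.46 to -0.40.

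Carriers of inorganic ions held 5 of 25 members higher and 3 lower (against 8.03% and 16.3% of all genes). The sodium-sulfate cotransporter Slc13a1 had 361 UMIs or 20.8 CPM at day 5 and 5 UMIs or 0.174 CPM at day 3, a log2 ratio of 6.77. The brush border exchangers of chloride and bicarbonate followed at lower ratios, with Slc26a6 at 92.5 CPM at day 5 and 19.2 CPM at day 3 and Slc26a3 at 70.0 CPM at day 5 and 15.8 CPM at day 3. Slc4a11, a membrane ion carrier of the bicarbonate transporter family, was at 0.403 CPM (0.162 to 0.831) in the day 5 library and 6.61 CPM (5.70 to 7.61) in the day 3 library. The sodium-proton exchanger of the brush border, Slc9a3, had 1 UMI at day 5 and 2 at day 3 and is not a member.

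Among carriers of metals 3 of 26 were higher and 4 lower, close to the shares of all genes (8.03% and 16.3%). The zinc carriers differed among themselves. Slc39a5, a zinc carrier of the basolateral side, stood at 96.9 CPM (92.3 to 102) in the day 5 library and 31.0 CPM (29.0 to 33.1) in the day 3 library. Slc39a4, the zinc carrier of the apical side, stood at 23.5 CPM (21.2 to 25.9) in the day 5 library and 59.0 CPM (56.2 to 61.9) in the day 3 library. Slc39a8, a carrier of zinc and manganese, stood at 37.1 CPM at day 5 and 14.9 CPM at day 3. The iron exporter Slc40a1 and the apical iron carrier Slc11a2 were within 2-fold.

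Of 26 carriers of nucleotide sugars and other organelle cofactors, 2 were higher, 2 lower and 22 within 2-fold; the glucose 6-phosphate carrier of the endoplasmic reticulum, Slc37a4, stood at 88.6 CPM at day 5 and 29.1 CPM at day 3. Of 13 carriers of vitamins and choline, 0 were higher and 2 lower, the lower ones close to the share of all genes. The reduced folate carrier Slc19a1 stood at 15.6 CPM at day 5 and 40.6 CPM at day 3. Of 14 carriers of organic ions and drugs, 6 were higher and 1 lower. Of 6 nucleoside carriers, 2 were higher and 1 lower. Beside all these counts, 8.03% of all genes were higher and 16.3% lower. The 2 of 26 carriers of nucleotide sugars and cofactors that were higher are close to that share.

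By place in the cell, 30 of 35 listed apical carriers of absorption were members, with a median log2 ratio of 2.13. Of these 18 were higher, 2 lower and 10 neither (all genes: 8.03% higher and 16.3% lower). Of 16 listed basolateral carriers 14 were members, with 7 higher, 0 lower and a median of 1.06. Genes outside the family that work with these carriers were read beside them. Of 24 listed, 19 had at least 50 UMIs, and 12 were higher and 2 lower, beside the same shares of all genes. Anpep, a brush border aminopeptidase, stood at 204.6 CPM at day 5 and 7.79 CPM at day 3. The sodium pump subunits Atp1b1 and Atp1b3 had log2 ratios of 0.58 and -1.53. Bsg, the chaperone of lactate carriers, was within 2-fold.

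To place the members in cells, each library was clustered without any Slc gene, and clusters were named by marker genes. The absorptive class held enterocyte-like clusters (411 cells at day 5 and 70 at day 3), the regenerative class clusters led by genes of regenerating epithelium (47 and 130 cells) and the secretory class 1 cluster of mixed Paneth and goblet markers per day (38 and 45 cells). The crypt class held proliferating-like clusters at day 5 (216 cells) and stem-like and proliferating-like clusters at day 3 (257 cells), so its makeup differs between the days. The regenerative name rests on 9 of 25 leading genes at day 5, Msln, Ly6a and Clu among them, and on 3 of 25 in each of the 2 clusters of day 3, with Sprr1a and Ly6d in the cluster of 78 cells and Ly6a, beside Mras and the histone gene Hist1h1a, in that of 52 cells. Clusters that could not be named held 353 cells at day 5 and 296 at day 3 and enter no class. The 24 enterocyte markers summed to 44776 CPM in absorptive, 18667 CPM in regenerative, 4469 CPM in secretory and 3021 CPM in crypt cells at day 5. At day 3 they summed to 5333 CPM in absorptive, 747 CPM in regenerative, 708 CPM in secretory and 614 CPM in crypt cells. Immune markers summed to at most 5.68 CPM and stromal and endothelial markers to at most 2.45 CPM in any class. Enteroendocrine markers at day 3 summed to 387 CPM in crypt, 144 CPM in secretory, 72.5 CPM in regenerative and 69.7 CPM in absorptive cells. Cck, 1 of these markers, led the proliferating-like cluster of 110 cells. Whether the crypt class of day 3 holds endocrine cells was not tested.

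At day 5 the absorptive cells held more of many nutrient carriers than the crypt cells and less of 4 of the 7 growth-linked amino acid carriers measured. Of 129 members with at least 50 UMIs over both classes, 67 were higher in absorptive cells (51.9%, against 15.9% of all genes), 13 were lower (10.1%, against 23.9% of all genes) and 49 were neither. The median log2 ratio of absorptive over crypt cells was 1.03 for members and -0.18 for all genes. Members summed to 6561 CPM (6488 to 6635) in absorptive and 2334 CPM (2292 to 2376) in crypt cells. Of the 25 apical carriers measured, 21 were higher and 1 lower, and of the 14 basolateral ones 10 were higher and 1 lower.

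**Figure D3:**
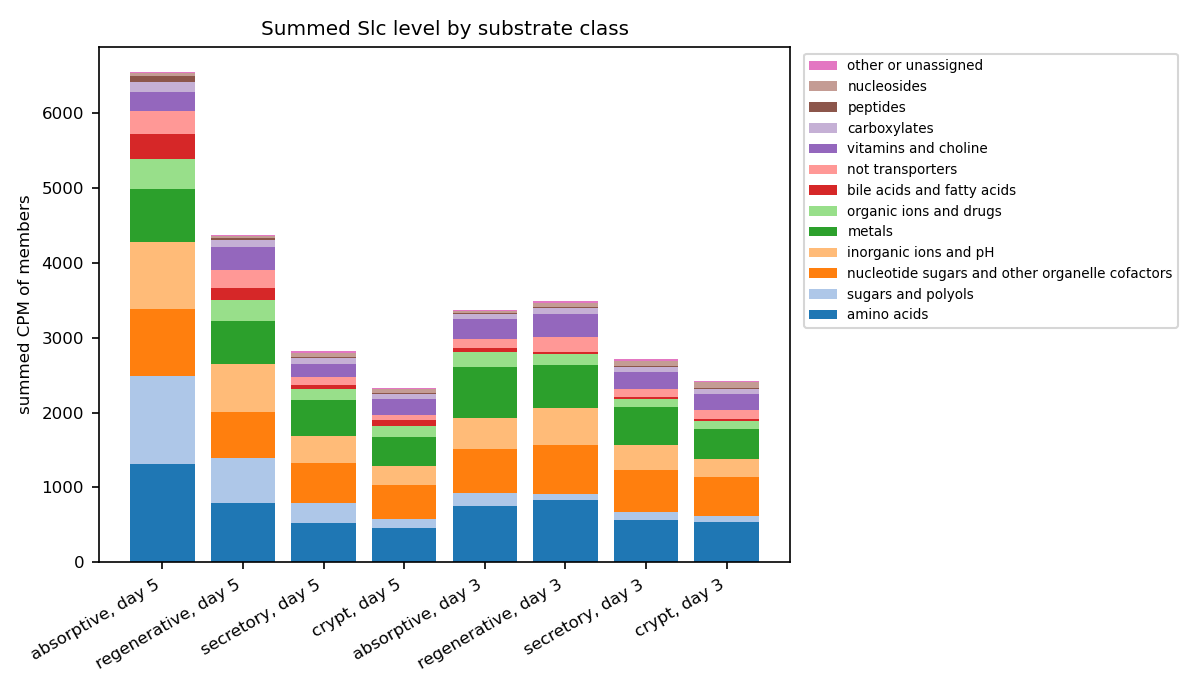
Summed CPM of all 171 members in each cell class of the day 5 library (left) and the day 3 library (right), stacked by substrate class. Absorptive cells at day 5 have the tallest bar (6561 CPM), in which sugars take 17.9% of the members' UMIs, against 5.3% in absorptive cells at day 3.

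Slc5a1, Slc2a2 and Slc15a1 had their highest levels in absorptive cells. Slc5a1 stood at 782 CPM in absorptive, 390 CPM in regenerative, 175 CPM in secretory and 77.0 CPM in crypt cells at day 5. Slc2a2 stood at 203 CPM in absorptive, 110 CPM in regenerative, 18.5 CPM in secretory and 2.38 CPM in crypt cells. For Slc15a1 the levels were 80.0 CPM in absorptive, 22.3 CPM in regenerative, 8.52 CPM in secretory and 0.992 CPM in crypt cells. The order of the classes was the same for these 3, and it is also the order of the summed enterocyte markers. Secretory cells held 10.0% of the absorptive level for Slc6a20a, 10.6% for Slc15a1, 22.3% for Slc5a1 and 4.47% for Slc13a1. Free RNA from absorptive cells may add to such values, and its part was not tested.

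Of the 7 growth-linked amino acid carriers measured, 4 were lower in absorptive than in crypt cells at day 5, 1 was higher and 2 were neither. Of all genes, 23.9% were lower and 15.9% higher. The higher one was the taurine carrier Slc6a6, at 107 CPM in absorptive and 52.2 CPM in crypt cells. Slc7a5 stood at 0.428 CPM in absorptive and 13.7 CPM in crypt cells, a log2 ratio of -4.69. Slc1a5, the glutamine carrier, stood at 5.99 CPM in absorptive and 53.8 CPM in crypt cells, and Slc7a1 at 6.21 CPM in absorptive and 38.7 CPM in crypt cells. The equilibrative nucleoside carrier Slc29a1 stood at 1.93 CPM in absorptive and 44.2 CPM in crypt cells, and the reduced folate carrier Slc19a1 at 4.28 CPM in absorptive and 24.6 CPM in crypt cells. Folate carriers thus differed in place: the proton-coupled folate carrier Slc46a1 stood at 19.7 CPM in absorptive and 0.992 CPM in crypt cells. Nucleoside carriers did likewise, with Slc28a1 at 19.9 CPM in absorptive and 0.198 CPM in crypt cells. Slc39a8 was higher in the day 5 library but lower in its absorptive cells, at 21.4 CPM against 46.6 CPM in crypt cells. Slc24a5, an exchanger of sodium, calcium and potassium, and the glutamate carrier Slc1a3 were also lower in absorptive cells, with log2 ratios of -3.84 and -3.06; they and Slc9a4, Slc35e4 and Slc12a8 below were named after their values were seen.

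**Figure D4:**
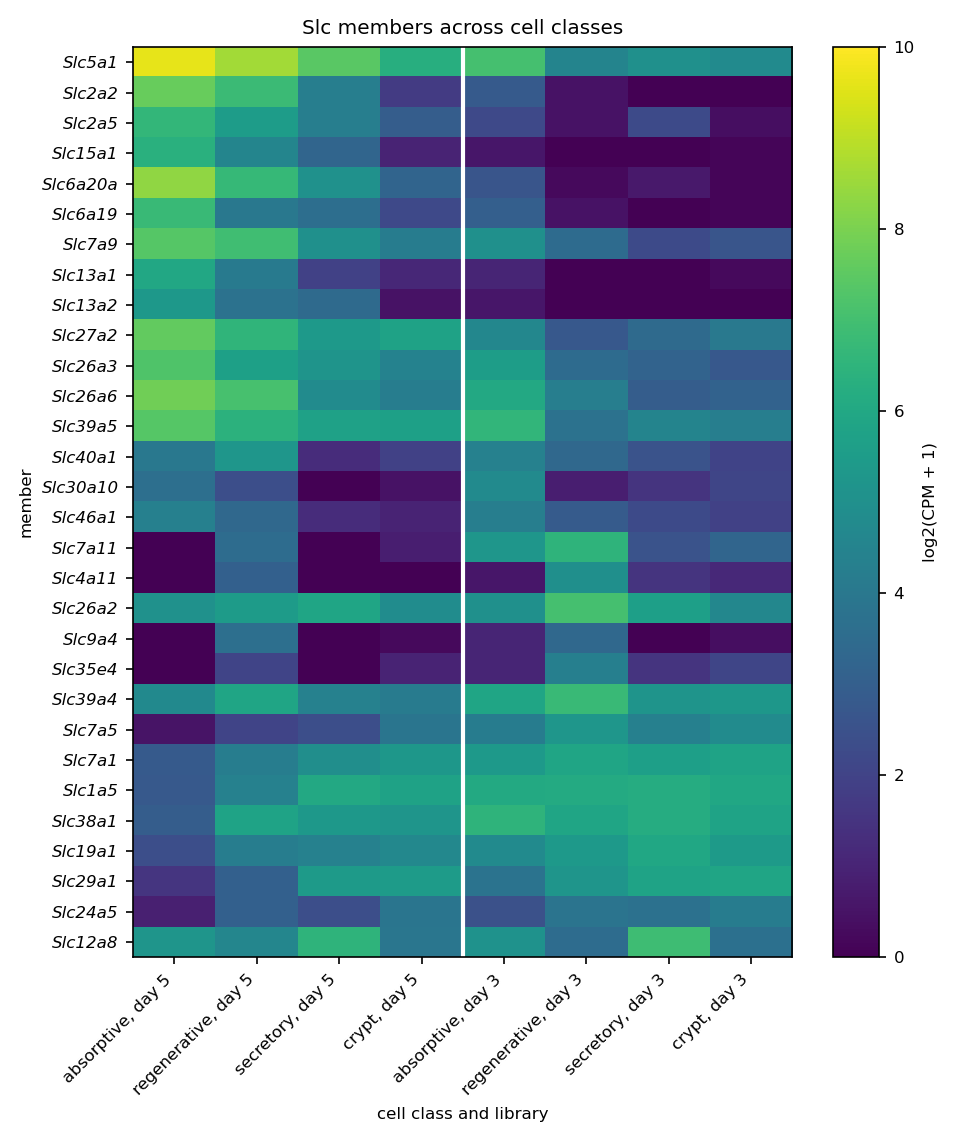
Level of 30 members as log2(CPM + 1) in 4 cell classes of the day 5 library (left of the white line) and of the day 3 library (right). Slc5a1, Slc2a2 and Slc15a1 are brightest in absorptive cells of day 5 (Slc5a1 at 782 CPM), Slc7a11, Slc4a11 and Slc26a2 in regenerative cells of day 3, and Slc12a8 in secretory cells of both days.

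At day 3 the absorptive cells carried only part of this set. Of 122 members measured, 25 were higher in absorptive than in crypt cells (20.5%, against 7.31% of all genes), 10 were lower (8.20%, against 14.4% of all genes) and 87 were neither, with medians of 0.30 for members and -0.19 for all genes. Of the 67 members higher in absorptive cells at day 5, 19 were also higher at day 3, 26 were within 2-fold and 22 were under 50 UMIs in the day 3 classes; these 19 are 19 of the 25 higher at day 3. Slc26a6 stood at 64.5 CPM in absorptive and 7.75 CPM in crypt cells, Slc7a9 at 31.5 CPM in absorptive and 5.30 CPM in crypt cells, and Slc5a1 at 131 CPM in absorptive and 26.3 CPM in crypt cells. Slc2a2 was at 6.19 CPM in absorptive cells and had no UMI in crypt cells. Slc15a1 was at 0.516 CPM in absorptive and 0.102 CPM in crypt cells, which is 1 UMI in each.

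The absorptive cells of the libraries were set side by side, a comparison added after the data were seen. Of 117 members measured, 53 were higher in absorptive cells of day 5 than in those of day 3 (45.3%, against 12% of all genes) and 11 were lower (9.40%, against 18.2% of all genes). Slc2a2 stood at 203 CPM in absorptive cells of day 5 and 6.19 CPM in those of day 3, and Slc6a20a at 326 CPM at day 5 and 5.16 CPM at day 3. Several metal and folate carriers were within 2-fold. Slc40a1 stood at 15.2 CPM in absorptive cells of day 5 and 20.1 CPM in those of day 3, Slc46a1 at 19.7 CPM at day 5 and 18.6 CPM at day 3, and Slc39a5 at 165 CPM at day 5 and 93.9 CPM at day 3. The manganese exporter Slc30a10 was lower, at 11.6 CPM at day 5 and 26.8 CPM at day 3. The glutamine carrier Slc1a5 was at 5.99 CPM in absorptive cells of day 5 and 66.1 CPM in those of day 3, and Slc38a1 at 6.63 CPM at day 5 and 89.3 CPM at day 3. At day 3 the absorptive cells thus held Slc1a5 at about the level of crypt cells (60.4 CPM). The summed proliferation markers were 393 CPM in absorptive cells of day 5 and 2563 CPM in those of day 3, and their part in these differences was not tested.

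In crypt cells, compared between the days in the same added way, 14 of 122 members were higher at day 5 (11.5%, against 4.19% of all genes) and 10 lower (8.20%, against 6.39% of all genes). The cystine carrier Slc7a11 was at 0.794 CPM in crypt cells of day 5 and 8.67 CPM in those of day 3, Slc1a4 at 5.95 CPM at day 5 and 14.7 CPM at day 3, and Slc7a6 at 3.57 CPM at day 5 and 11.6 CPM at day 3. Slc1a5, Slc7a1 and Slc38a1 were within 2-fold, with log2 ratios of -0.17, -0.52 and -0.60. The members higher in crypt cells of day 5 included Slc5a1, Slc7a9, Slc3a1, Slc26a3 and Slc26a6, which are those of absorptive cells. The enterocyte markers in crypt cells were 3021 CPM at day 5 and 614 CPM at day 3, and their part in these values was not tested.

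Regenerative cells of day 3 had higher levels of the cystine carrier Slc7a11 and of some carriers of sulfate and other ions than crypt cells. Of 131 members measured, 21 were higher in regenerative than in crypt cells (16.03%, against 9.1% of all genes), 6 were lower (4.58%, against 1.79% of all genes) and 104 were neither, with medians of 0.47 for members and 0.09 for all genes. Among these, 7 of 20 carriers of inorganic ions were higher and 0 lower. Of 23 amino acid carriers, only Slc7a11 was higher and 4 were lower. The lower ones were Slc7a8, Slc1a3, Slc16a10 and Slc1a1, with log2 ratios of -1.98, -1.67, -1.23 and -1.01. The count of 21 higher members depends on how the cells are clustered. The regenerative class held 130 cells here, 129 with Slc genes kept, 81 at resolution 0.6 and 60 at resolution 1.5. With the libraries clustered together it held 81. The count thus comes from different sets of cells. With Slc genes kept in the clustering it was 26 (19.5%, against 9.24% of all genes). At resolution 0.6 it was 40 (31.7%, against 14.4% of all genes), at resolution 1.5 it was 43 (38.7%, against 19.0% of all genes), and with the libraries clustered together it was 38 (30.9%, against 14.5% of all genes). Slc7a11 stood at 88.9 CPM in regenerative and 8.67 CPM in crypt cells, a log2 ratio of 3.35, and at 37.2 CPM in absorptive and 4.96 CPM in secretory cells. Slc4a11 stood at 30.9 CPM in regenerative and 1.22 CPM in crypt cells, a log2 ratio of 4.61, and at 0.516 CPM in absorptive cells. Slc26a2, the sulfate carrier that supplies proteoglycan sulfation, stood at 132 CPM in regenerative and 23.8 CPM in crypt cells. The orphan carrier Slc35e4 and the sodium-proton exchanger Slc9a4 had log2 ratios of 2.51 and 4.74, the second from 9.46 CPM in regenerative cells and 0.306 CPM in crypt cells. The apical zinc carrier Slc39a4 stood at 108 CPM in regenerative and 38.4 CPM in crypt cells.

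The regenerative cells of day 3 formed 2 clusters that differed in these members. Slc7a11 stood at 122 CPM in the cluster of 78 cells and 32.3 CPM in the cluster of 52 cells, Slc4a11 at 48.6 CPM in the larger and 1.06 CPM in the smaller cluster, and Slc26a2 at 200 CPM in the larger and 17.0 CPM in the smaller. The values of Slc4a11 and Slc26a2 in the smaller cluster were close to those of crypt cells. Slc4a11 and Slc26a2 were thus high in 1 of the regenerative clusters, whereas Slc7a11 was above its crypt level (8.67 CPM) in both. The 10 cells with most UMIs held 27.5% of the Slc7a11 UMIs, 41.1% of the Slc4a11 UMIs and 23.1% of the Slc26a2 UMIs of the day 3 library, against a median of 12.3% over members.

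**Figure D5:**
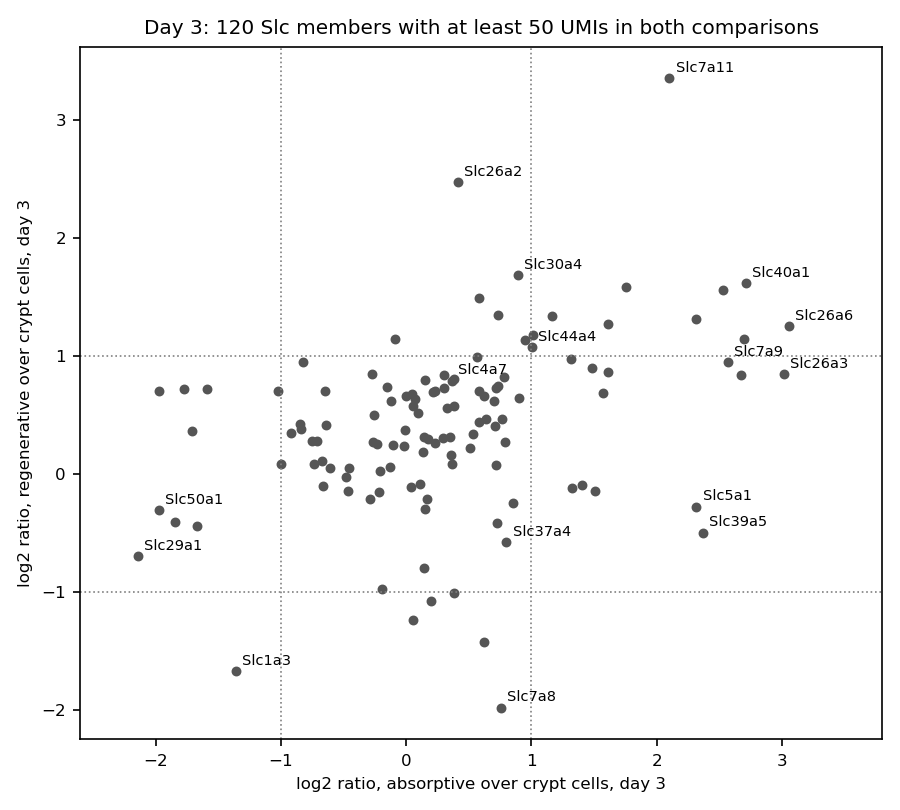
Log2 ratios in the day 3 library of absorptive over crypt cells (horizontal) and regenerative over crypt cells (vertical) for the 120 members with at least 50 UMIs in both; both ratios share the crypt cells, and dotted lines mark 2-fold. Slc7a11 is above 2-fold on both axes (2.10 and 3.35), Slc26a2 on the vertical one alone (0.41 and 2.47) and Slc5a1 on the horizontal one alone (2.32 and -0.28).

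The 47 regenerative cells of day 5 differed from those of day 3 in what they carried, with 22 of 104 members higher at day 5 (21.2%, against 6.66% of all genes) and 23 lower (22.1%, against 23% of all genes). In an added comparison with crypt cells of day 5, 28 of 91 members were higher (30.8%, against 10.8% of all genes) and 8 were lower (8.79%, against 11.5% of all genes). The regenerative markers summed to 3457 CPM in these cells at day 5 and 10866 CPM at day 3, and the enterocyte markers to 18667 CPM at day 5 and 747 CPM at day 3; the part of these markers in the counts was not tested. Slc7a11 stood at 10.6 CPM in regenerative cells of day 5, where 10 of the library's 16 UMIs lay, and at 88.9 CPM in those of day 3. All 7 UMIs of Slc4a11 in the day 5 library lay in this class. Slc9a4 stood at 11.7 CPM in regenerative cells of day 5 and 9.46 CPM in those of day 3, with at most 1.03 CPM in the other classes of either day. The iron exporter Slc40a1 had its highest level of day 5 in regenerative cells, at 37.1 CPM against 2.78 CPM in crypt cells.

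The absorptive cells of day 5 formed 2 clusters, 1 of 232 cells led by Ggt1, Apoa4 and Cyp3a11 and 1 of 179 cells led by Fabp1, Reg1 and Rbp2. In this comparison, added after the data were seen, 23 of 101 members were higher in the first cluster (22.8%, against 4.94% of all genes) and 0 were lower (against 0.718% of all genes), by 2-fold and with no test. Slc5a4b stood at 59.6 CPM in the first and 3.03 CPM in the second cluster, Slc28a1 at 32.6 CPM and 6.93 CPM, Slc15a1 at 129 CPM and 29.9 CPM, and Slc13a1 at 98.5 CPM and 27.7 CPM. Slc2a2 differed by less, at 241 CPM in the first and 165 CPM in the second, and Slc7a9 stood at 166 CPM and 164 CPM. The cystine and basic amino acid carrier was thus level between the clusters in which the peptide carrier was not.

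Both comparisons with secretory cells were added after the data were seen. In secretory over crypt cells of day 5, 14 of 81 members passed 2-fold, 9 higher (11.1%, against 3.57% of all genes) and 5 lower (6.17%, against 8.07% of all genes). The counting intervals of the classes lay apart for 8 of the higher members and for 0 of the lower ones. Slc12a8, of the family of cation-chloride cotransporters, stood at 90.9 CPM in secretory, 36.6 CPM in absorptive, 23.3 CPM in regenerative and 14.3 CPM in crypt cells at day 5. At day 3 it stood at 118 CPM in secretory, 33.5 CPM in absorptive, 10.6 CPM in regenerative and 11.8 CPM in crypt cells. It was the highest in secretory cells in both libraries. Slc50a1 stood at 42.6 CPM in secretory and 26.4 CPM in crypt cells at day 5 and 65.1 CPM in secretory and 37.5 CPM in crypt cells at day 3, within 2-fold on both days. Absorptive cells set against the secretory cells of day 5 had 61 of 110 members higher (55.5%, against 19.2% of all genes) and 8 lower (7.27%, against 10.9% of all genes).

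Over all members, the class with the highest level at day 5 was the absorptive one for 82 members, the regenerative one for 42, the secretory one for 31 and the crypt one for 16. At day 3 it was the absorptive class for 59 members, the regenerative one for 71, the secretory one for 33 and the crypt one for 8. Classes with fewer UMIs scatter more and can be highest by counting error for members of low level.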

How the data were processed

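Cells of 2 libraries were counted with droplet-based sequencing of transcript 3′ ends, so that a UMI count does not scale with transcript length. The authors deposited UMI counts per gene and cell, made with Cell Ranger 1.3.0 on mm10 per the submitters' processing notes, and log2 values of the same cells. How genes and cells were filtered, and the strand setting, are not stated in the labels. The members, substrate classes and gene lists were chosen with earlier results of these data known, and the class of Slc4a1ap was set after the files were seen. Counts were summed per library or cell class (day 5 library 17349076 UMIs, day 3 library 28764033) and scaled to CPM, and log2 ratios had 0.5 UMI added to each sum. The background of a comparison is all genes with at least 50 UMIs over both groups (10976 for the days).

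Each library was clustered alone with scanpy 1.11.5 on 2000 variable genes without Slc genes, 30 components, 15 neighbours and Leiden resolution 1 (igraph 0.11.9). A cluster was named when at least 3 of its 25 leading genes marked a type and its first 10 held no more markers of another. The doublet caller Scrublet called 8 cells at day 5 and 0 at day 3, which does not show that doublets are absent; all cells were kept. Column names number the cells and hold no barcodes, so barcodes shared by the libraries could not be counted. Named members were the 2 highest and 2 lowest per class and the 5 highest and 5 lowest per comparison of cell classes with at least 20 CPM in the higher group, and any member of the location lists; some genes that this rule takes are left out. TMM factors came from edgeR 4.0.16, and numpy 2.4.6, pandas 2.3.3, scipy 1.17.1 and matplotlib 3.10.9 were used. The fold call was tested on simulated data. Slc20a2, Slc39a10, Slc35b3, Slc10a3 and Slc5a3 overlap another gene on the same strand and are uncertain. Alternatives were other scalings, fold limits, UMI minimums, cell weights, cell sets and clusterings.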

Additional observations from a re-analysis of the deposited data

Results flagged for a closer look

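Slc16a10, the carrier of aromatic amino acids, had opposite directions in regenerative over crypt cells of the 2 libraries. At day 5 the log2 ratio was 1.10, from 19 UMIs in regenerative cells (20.1 CPM, 12.1 to 31.5) and 48 in crypt cells (9.52 CPM, 7.02 to 12.6). These counting intervals overlap, so the day 5 direction is not clear of counting error. At day 3 the log2 ratio was -1.23, from 15 UMIs in regenerative cells (2.96 CPM, 1.65 to 4.88) and 70 in crypt cells (7.14 CPM, 5.56 to 9.02). The difference between the days was not tested, since each day has 1 library.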

How the results depend on the processing

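For day 5 over day 3, TMM factors gave 59 members higher and 15 lower, a 1.5-fold limit 67 higher and 50 lower, no UMI minimum 43 lower of 239, a minimum of 200 UMIs 27 higher of 130, and the means of the authors' log2 values 4 higher and 0 lower. No share of all genes is given for these alternatives. With the absorptive cells left out Slc34a2 (64 UMIs in all) had a log2 ratio of -0.056 in place of 1.95. For regenerative over crypt cells of day 3, resolution 0.6 gave 40 higher and 10 lower, resolution 1.5 gave 43 higher, clustering the libraries together 38 higher and 11 lower, and stem-like clusters alone as crypt (chosen after seeing the data) 3 lower; the cause was not tested. TMM factors added 0.22 to the log2 ratios of absorptive over crypt cells at day 5, 0.11 at day 3 and -0.14 to those of regenerative over crypt cells at day 3. Both comparisons of absorptive over crypt cells kept their counts within 1.5 times under the alternatives run. Clustering the libraries together left 2 crypt cells at day 5 and 2 absorptive cells at day 3, too few to give a value. Among named members, 230 alternative values of day 5 over day 3 stayed within the counting interval, 261 moved beyond it, and 1 called member reversed; members within 2-fold could change sign, such as Slc3a2, at -0.27 with totals and 0.05 with TMM factors. No paired analysis was possible because each day has 1 library, and no replicate could be left out. Members with few UMIs in small classes are limited by depth.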
